A study of Mus musculus with 4 samples.

Results

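Genes of the autophagy machinery were followed in double-positive thymocytes of Srsf1 conditional knockout mice. The group is a list of 36 genes given by name, chosen with earlier results of these data known, and all 36 were found among the 53715 genes of the deposited tables. It covers the kinases and scaffolds that start autophagy, the lipid kinase complex, lipid supply, the conjugation enzymes, the small ATG8 proteins, cargo receptors and the transcription factor gene Tfeb. All 36 passed the filter on low counts, which left 16588 genes for testing.

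Thymocytes at the CD4+CD8+ stage were sorted from C57BL/6 mice of 6 to 8 weeks and their total RNA was sequenced. The wild-type group (WT, 2 libraries) is described by that genotype alone, and whether these mice carried a Cre or a floxed allele is not given in the sources used here. The knockout group (KO, 2 libraries) had the genotype LCKCre/+ Srsf1fl/fl, in which Cre recombinase under Lck control acts in T lineage cells on floxed alleles of a splicing factor gene. Nothing states that the libraries of a group came from separate animals, so p-values measure only the spread between these libraries, which may be technical.

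Srsf1 had 134 and 123 counts per 1000000 library counts (CPM) in WT and 49.7 and 48.7 CPM in KO, so its transcripts were lower in both KO libraries and still present. Libraries held 35862730 to 37033180 gene counts. All 10 markers of the sorted stage were detected, with a summed level of 8469 to 8834 CPM in WT and 11770.3 to 12176 CPM in KO, and 6 of them (Cd8a, Cd8b1, Rag1, Rag2, Dntt and Ptcra) were called higher in KO, though Cd8a and Ptcra not in every fit with a library left out. Macrophage, dendritic, erythroid and thymic epithelial markers summed to 0.432 to 19.8 CPM per list and library, with Clec9a, Krt5 and Foxn1 at 0 throughout. Fibroblast and endothelial markers summed to 120.0 to 137 CPM, nearly all from Pecam1, with Col3a1 at 0. The 5 B cell markers summed to 10.1 to 12.2 CPM in WT and 18.8 to 21.1 CPM in KO, where Cd79b alone was called higher (edgeR adjusted p = 0.0239), and not without WT replicate 2 (0.0976) or KO replicate 2 (0.0744). The double-positive and B cell lists moved with genotype, and their part in the results was not tested. In bulk libraries, fewer cells with a transcript and less of it per cell cannot be told apart.

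Autophagy encloses cytoplasm in a double membrane that then fuses with the lysosome. The ULK kinase complex, held back by the nutrient sensor mTORC1, starts the process, and a class III phosphatidylinositol 3-kinase marks the membrane. ATG9 and ATG2 supply lipid, ubiquitin-like conjugation systems attach ATG8 proteins to the membrane, and cargo receptors bind those. In mice, deletion of Atg5 or Atg7 in T lineage cells lowers the number of surviving T cells.

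The autophagy genes that changed were mostly lower in KO, by modest amounts, in a list that was not chosen independently of these data. Of the 36, 11 were called lower and 2 higher at an edgeR adjusted p under 0.05, and 23 were not called. Among all tested genes 7.89% were called lower, 6.63% higher and 14.5% in either direction, against 30.6% lower and 5.56% higher of the autophagy genes. An unadjusted p under 0.05 was reached by 16 of the 36, with a background of 27.4%. These are abundant genes with small errors, so shares were also taken at a mean of at least 10 CPM, a level chosen after the data were seen. There 13.3% of 8427 genes were lower, 11.9% higher and 25.3% either, beside 11 lower and 2 higher of the 31 autophagy genes at that level. The median log2 fold change (KO minus WT) was -0.15 over the 36 and 0.00222 over all tested genes. It was negative in 25 of 36 and in 8262 of 16588. In 24 autophagy genes the groups did not overlap (66.7%, background 55.9%). The called decreases ran from -0.25 to -0.81 on the log2 scale. The same background shares apply to the counts by role below, and no role was tested as a set.

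**Figure D1:**
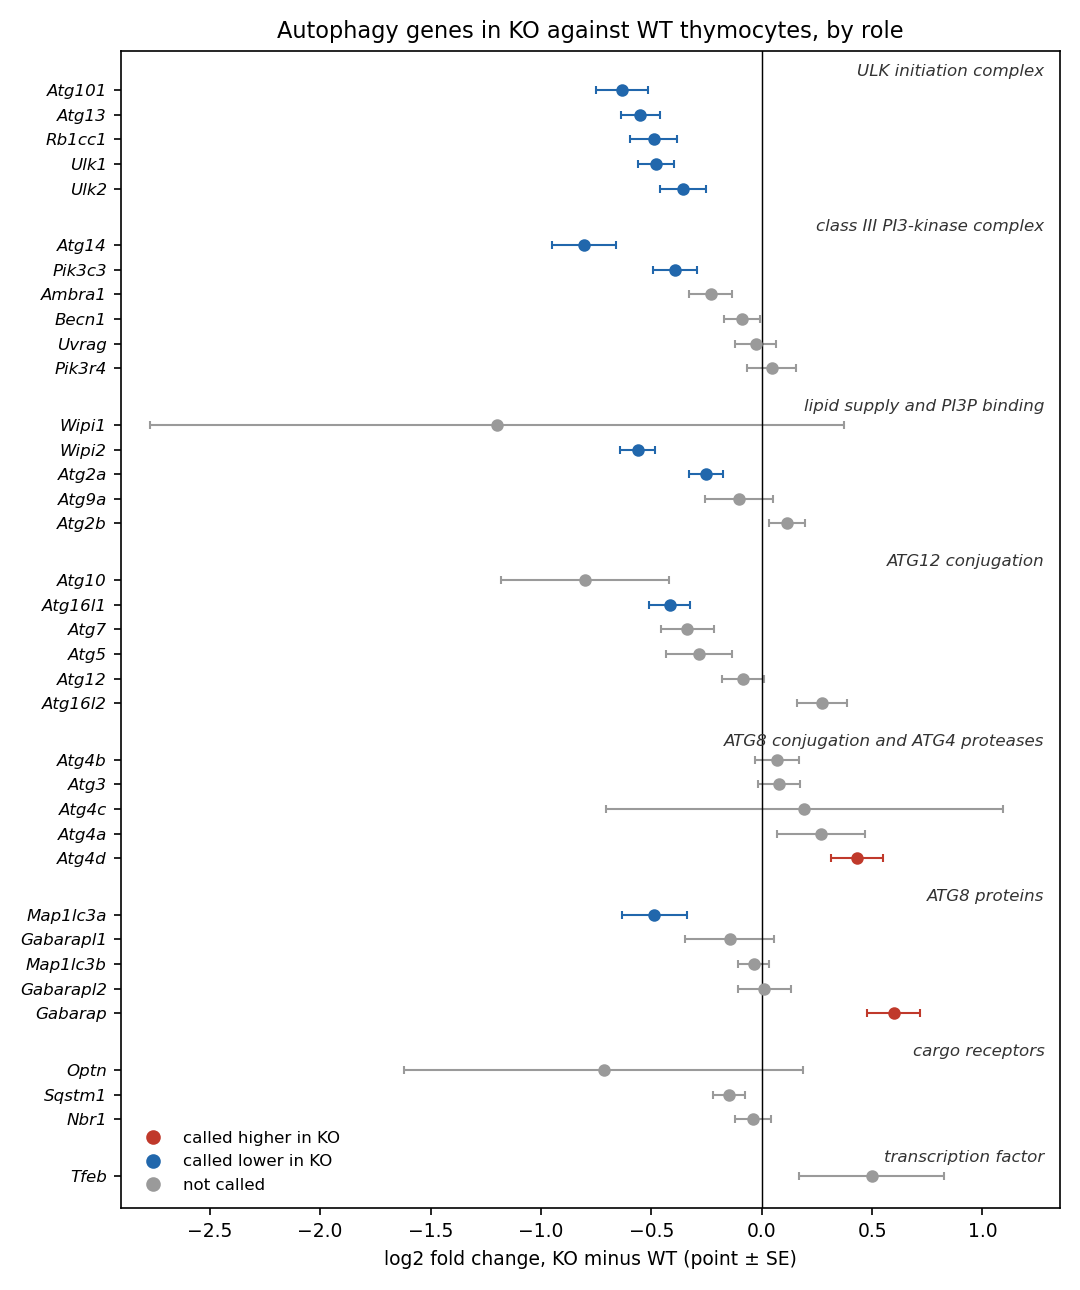
Log2 fold change (KO minus WT, x axis) of each of the 36 autophagy genes (rows, grouped by role), with bars of 1 standard error from the edgeR fit on 2 libraries per group. All 5 genes of the ULK initiation complex lie left of 0 and are called lower. In the ATG8 conjugation and ATG4 protease group 1 gene, Atg4d, is called, and Atg3, Atg4b and Atg4c lie within 1 standard error of 0.

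**Figure D2:**
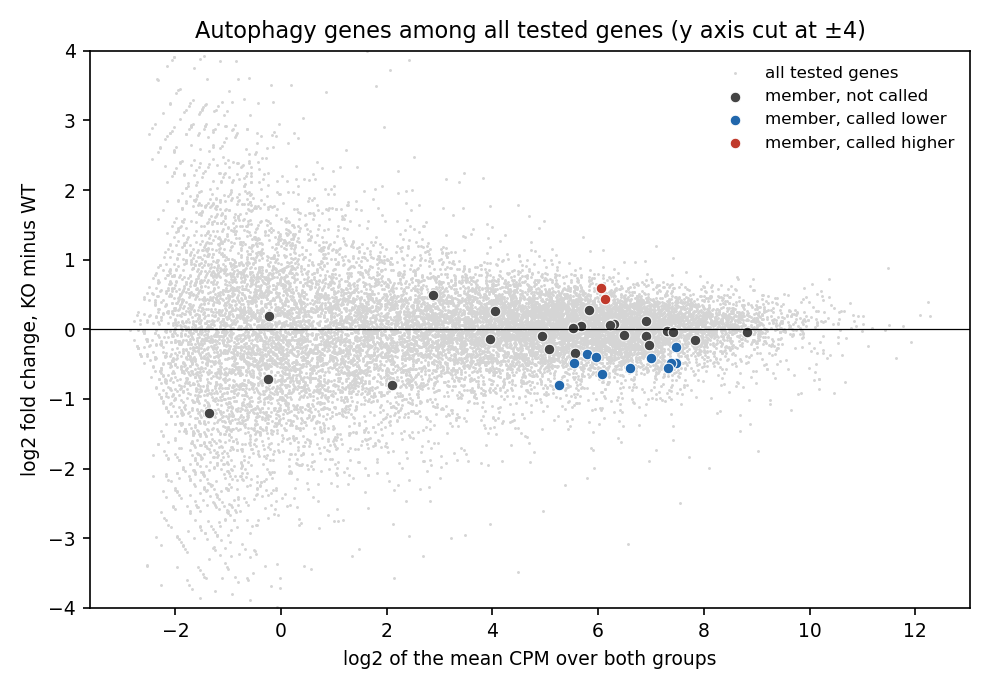
Mean level (log2 CPM, x axis) against log2 fold change (y axis) for 16588 tested genes (light grey) and the 36 autophagy genes (large points). The 13 called autophagy genes sit among abundant genes, within 1 log2 unit of 0.

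Every gene of the ULK initiation complex fell. The complex joins the kinase ULK1 or ULK2 to the scaffolds ATG13, FIP200 (gene Rb1cc1) and ATG101. All 5 genes were called lower, with a median log2 fold change of -0.49. In each of them both KO libraries lay below both WT libraries, and groups did not overlap in 55.9% of all tested genes. That separation comes from the same values as the calls and adds no support to them. Since they fell together, their promoter windows are shown, from 250 bases before to 50 after the RefSeq start (GRCm38.p6), 5′ to 3′ on the strand of the gene: Ulk1 at chr5:110810032-110810331 (minus strand), Ulk2 at chr11:61855043-61855342 (minus), Atg13 at chr2:91710543-91710842 (minus) and Atg101 at chr15:101284051-101284350 (plus). Rb1cc1 is named only. Capitals mark the GC box, GGGCGG on either strand.
Ulk1: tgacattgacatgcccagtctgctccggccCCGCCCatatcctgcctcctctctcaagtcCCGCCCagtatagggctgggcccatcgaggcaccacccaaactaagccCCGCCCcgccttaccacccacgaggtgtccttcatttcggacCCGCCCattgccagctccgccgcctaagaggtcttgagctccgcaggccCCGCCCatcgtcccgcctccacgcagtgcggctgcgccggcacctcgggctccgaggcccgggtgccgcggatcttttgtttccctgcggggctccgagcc
Ulk2: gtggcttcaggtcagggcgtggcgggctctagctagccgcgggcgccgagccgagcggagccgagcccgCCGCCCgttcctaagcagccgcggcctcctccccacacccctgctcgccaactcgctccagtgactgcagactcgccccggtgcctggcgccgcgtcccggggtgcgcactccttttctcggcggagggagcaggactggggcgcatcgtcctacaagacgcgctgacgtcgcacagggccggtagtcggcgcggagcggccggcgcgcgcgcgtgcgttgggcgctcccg
Atg13: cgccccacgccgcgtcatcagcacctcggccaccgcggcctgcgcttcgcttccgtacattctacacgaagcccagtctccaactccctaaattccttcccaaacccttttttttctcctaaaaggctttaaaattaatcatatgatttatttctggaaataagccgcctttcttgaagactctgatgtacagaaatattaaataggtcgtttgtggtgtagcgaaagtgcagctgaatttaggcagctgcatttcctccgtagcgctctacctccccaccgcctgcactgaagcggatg
Atg101: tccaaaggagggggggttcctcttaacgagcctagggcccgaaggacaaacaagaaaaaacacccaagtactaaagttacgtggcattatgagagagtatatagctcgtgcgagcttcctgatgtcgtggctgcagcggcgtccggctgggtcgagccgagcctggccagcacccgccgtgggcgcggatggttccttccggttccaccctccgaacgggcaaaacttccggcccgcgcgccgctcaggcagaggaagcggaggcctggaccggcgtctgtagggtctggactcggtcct
The GC box was found 5 times in the Ulk1 window and 1 time in that of Ulk2, and not in those of Atg13 and Atg101. The E-box CACGTG, the forkhead motif GTAAACA and CCAAT, also searched on both strands, were found in none of these 4 windows. Across 32851 windows 35.7% held a GC box, 37.4% CCAAT, 7.15% the E-box and 3.65% the forkhead letters. RefSeq windows were matched for 30 of the 36 autophagy genes, of which 20 held a GC box, 8 CCAAT, 4 the E-box and 0 the forkhead letters. For each gene the window nearest its annotated start was taken, whereas the 32851 are all windows. It lay 27999 bases away for Atg7, 3405 for Atg4b, 2215 for Atg14 and 1886 for Wipi2, and at most 578 for the rest. Atg7 and Atg14 are among the 4 with an E-box, and Atg7 among the 8 with CCAAT. The 4 printed windows have none of the searched motifs in common. At the shares of all windows, 3.65% to 37.4%, a motif common to all 4 was unlikely beforehand. For the GC box, held by 20 of the 30 matched windows, it was less so. Whether any motif has a part in the lower levels was not tested.

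Ulk1 (ENSMUSG00000029512.11, chromosome 5, 110784488 to 110810097, minus strand), positions here and below being those of GRCm38, had 211 and 202 CPM in the WT libraries against 142 and 154 CPM in the KO libraries. The edgeR fit gave a log2 change -0.48 with SE 0.08 and adjusted p = 0.00218. Ulk2 (ENSMUSG00000004798.14, chromosome 11, 61775649 to 61855073, minus strand), the second kinase gene, had 61.6 and 62.0 CPM in the WT libraries against 48.1 and 48.3 CPM in the KO libraries (log2 change -0.36 with SE 0.11 and adjusted p = 0.0404). The Ulk2 replicates nearly coincided within each group.

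Atg13 (ENSMUSG00000027244.14, chromosome 2, 91674618 to 91710576, minus strand), for the subunit that links kinase and scaffold, had 120.4 and 111 CPM in the WT libraries against 78.8 and 78.8 CPM in the KO libraries (log2 change -0.55 with SE 0.09 and adjusted p = 0.00159). Atg101 (ENSMUSG00000037204.7, chromosome 15, 101284272 to 101290945, plus strand), whose product stabilises ATG13, had 89.8 and 73.0 CPM in the WT libraries against 54.6 and 50.2 CPM in the KO libraries (log2 change -0.63 with SE 0.12 and adjusted p = 0.00348), the lowest fold change in the complex. In KO, Atg13 stood at 68.3% and Atg101 at 64.4% of the WT mean. Rb1cc1 (ENSMUSG00000025907.14, chromosome 1, 6206197 to 6276648, plus strand) had 219 and 170.2 CPM in the WT libraries against 139 and 138 CPM in the KO libraries (log2 change -0.49 with SE 0.11 and adjusted p = 0.00930). Its WT libraries were far apart while its KO libraries nearly met. Rb1cc1 exons share 558 bases with 4732440D04Rik on the other strand, which had 110 to 196 counts per library.

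Ulk2 was not called with any 1 of the 4 libraries left out (adjusted p = 0.0583 to 0.155), nor Rb1cc1 without WT replicate 1, where its log2 change was -0.29 (adjusted p = 0.111), so the complex had 3 to 4 lower calls in those fits. On log2 of the deposited RPKM (reads per kilobase per 1000000 reads), limma called 0 of 25133 genes with either 0.5 or 0.1 added, although 4289 and 4370 genes had an unadjusted p under 0.05. Over genes with a mean of at least 1 RPKM, a limit added after the data were seen, limma called 5 autophagy genes lower, 3 of them in this complex, and 1 higher.

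**Figure D3:**
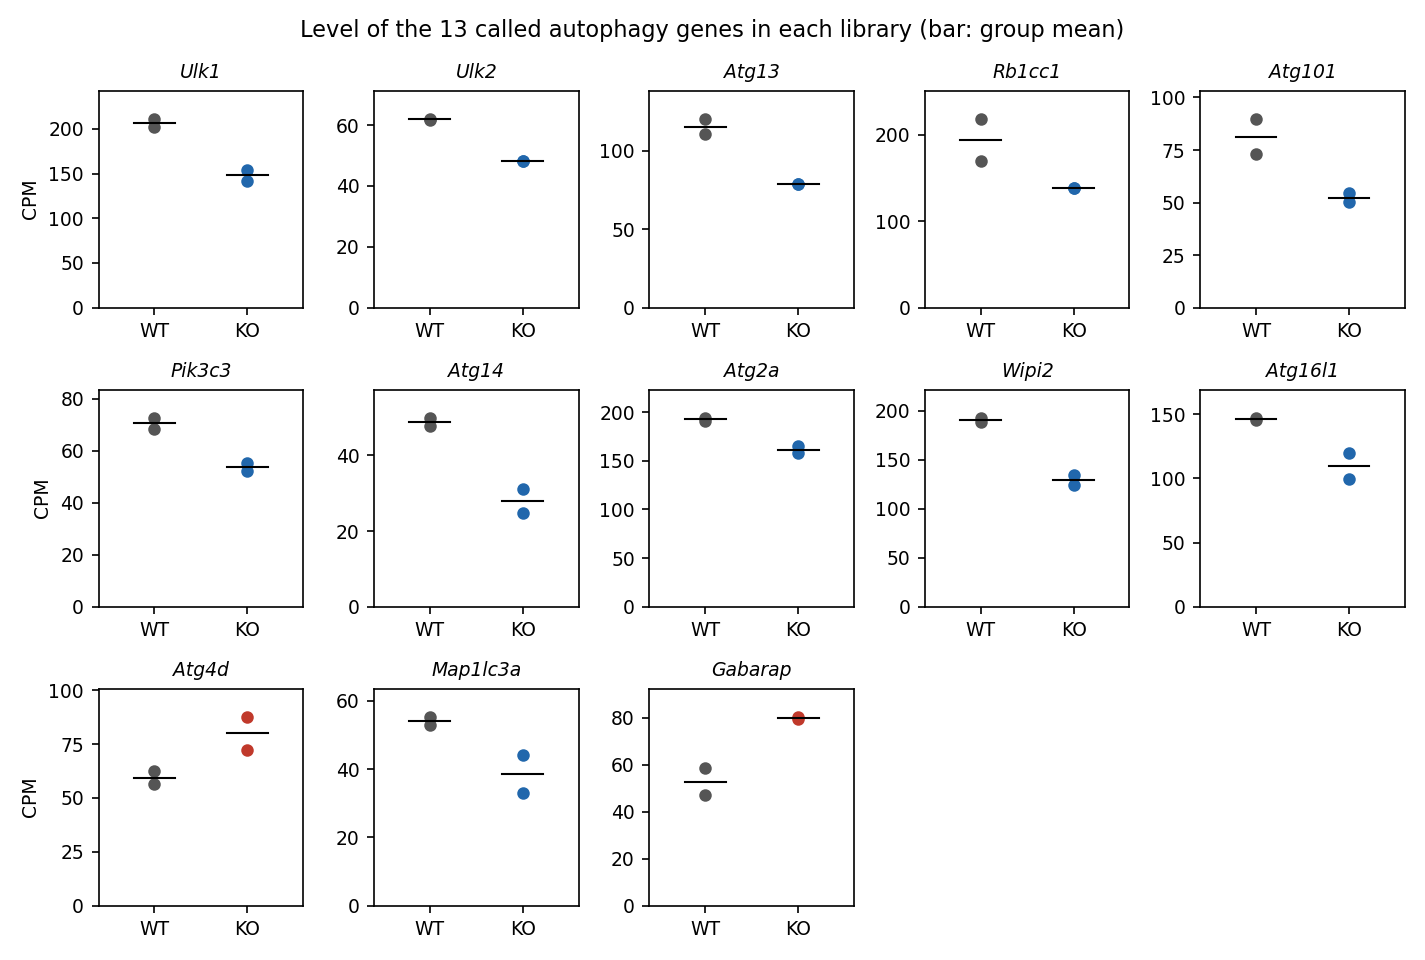
CPM (y axis, from 0) of each of the 13 called autophagy genes in the 2 WT libraries (grey) and the 2 KO libraries (blue where lower, red where higher), with a bar at each group mean. WT and KO points do not overlap in any of the 13 panels, and the KO points of Atg13, Ulk2 and Rb1cc1 nearly coincide. Groups did not overlap in 55.9% of all tested genes.

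In the class III phosphatidylinositol 3-kinase complex, the kinase gene and the gene of its autophagy-specific subunit fell, 2 of 6 in all, with a median log2 fold change of -0.16. Atg14 (ENSMUSG00000037526.7, chromosome 14, 47540893 to 47570649, minus strand), whose product directs the kinase to the forming autophagosome, had 47.7 and 49.9 CPM in the WT libraries against 31.1 and 24.8 CPM in the KO libraries. Its log2 change -0.81 with SE 0.14 and adjusted p = 0.00277 made it the lowest of the called genes. Atg14 exons share 239 bases with Gm49004 on the other strand, which had at most 11 counts in a library. Pik3c3 (ENSMUSG00000033628.15, chromosome 18, 30272747 to 30348126, plus strand), the lipid kinase itself, had 68.5 and 72.7 CPM in the WT libraries against 55.3 and 52.0 CPM in the KO libraries (log2 change -0.39 with SE 0.10 and adjusted p = 0.0219). The groups did not overlap, but the Pik3c3 call did not hold without WT replicate 2 (adjusted p = 0.127) or without KO replicate 2 (0.0528).

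The other 4 subunit and partner genes were not called. Pik3r4, the regulatory subunit, was at 50.3 ± 1.13 CPM in WT against 51.9 ± 0.893 CPM in KO (SD, n = 2; log2 change 0.05 with SE 0.11). Becn1, the Beclin scaffold, was at 124 ± 3.05 CPM in WT against 116 ± 0.387 CPM in KO (log2 change -0.09 with SE 0.08), and its exons share 3104 bases with the scarce opposite-strand gene Cntd1. How reads in those bases were assigned is not known. Uvrag, whose product takes the place of ATG14 in the endosomal form of the complex, was at 160.1 ± 13.9 CPM in WT against 157 ± 13.6 CPM in KO (log2 change -0.03 with SE 0.09), with overlapping groups. Whether Atg14 and Uvrag differ in their change was not tested. Ambra1, which regulates Beclin, had 132 and 138 CPM in the WT libraries against 105 and 125 CPM in the KO libraries (log2 change -0.23 with SE 0.10 and adjusted p = 0.146), and its log2 change was -0.09 without KO replicate 1 (adjusted p = 0.664) and -0.37 without KO replicate 2 (0.00730). It lies 19557 bases from Atg13 on chromosome 2.

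Among the 5 genes of lipid supply and phosphatidylinositol 3-phosphate binding, 2 fell. WIPI2 binds that lipid and recruits the ATG16L1 complex. Wipi2 (ENSMUSG00000029578.15, chromosome 5, 142627698 to 142670588, plus strand) had 189 and 193 CPM in the WT libraries against 135 and 124 CPM in the KO libraries, and its log2 change -0.56 with SE 0.08 and adjusted p = 0.000624 gave the smallest adjusted p of the 36. The paralogue Wipi1 had 32 and 7 counts in WT against 1 and 16 in KO, too few to show a change at this depth. Wipi2 held 99.3 ± 0.622% in WT and 99.6 ± 0.561% in KO of the summed RPKM of the pair.

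Atg2a (ENSMUSG00000024773.14, chromosome 19, 6241668 to 6262335, plus strand), encoding a lipid transfer protein, had 191 and 194 CPM in the WT libraries against 165 and 158 CPM in the KO libraries (log2 change -0.25 with SE 0.08 and adjusted p = 0.0433). That call did not hold with any 1 library left out (adjusted p = 0.0517 to 0.185), nor with upper-quartile factors (0.0541) or a replicate block (0.0680). Its paralogue Atg2b was at 115 ± 4.95 CPM in WT against 125 ± 3.35 CPM in KO (log2 change 0.12 with SE 0.08 and adjusted p = 0.424). Atg2a was the more abundant per length in every library, and it held 74.5 ± 1.03% in WT and 69.4 ± 0.137% in KO of their summed RPKM. Atg9a, the lipid scramblase gene, was at 31.7 ± 3.28 CPM in WT against 29.5 ± 2.45 CPM in KO (log2 change -0.10 with SE 0.15) with overlapping groups, and shares 1832 exon bases with Gm29253 on the same strand, which had 0 counts. How reads in those bases were counted is not given, so the 0 counts do not show that Atg9a lost none.

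In the ATG12 conjugation system, which joins ATG12 to ATG5 and holds them on ATG16L1, 1 of 6 genes fell. The background called lower is 7.89% of all tested genes, and 13.3% at a mean of at least 10 CPM. Atg16l1 (ENSMUSG00000026289.15, chromosome 1, 87755870 to 87792428, plus strand) had 147 and 145 CPM in the WT libraries against 119.7 and 99.3 CPM in the KO libraries (log2 change -0.42 with SE 0.09 and adjusted p = 0.0109). Its paralogue Atg16l2 had 55.3 and 47.8 CPM in the WT libraries against 62.1 and 62.3 CPM in the KO libraries (log2 change 0.27 with SE 0.11 and adjusted p = 0.132), so both KO libraries were higher without passing the test. The log2 ratio of Atg16l1 to Atg16l2 RPKM was 1.23 and 1.42 in WT against 0.76 and 0.49 in KO. Since each gene's groups were already apart, in opposite directions, these ratios could not overlap. An exact two-sided permutation test gave p = 0.333, the smallest that 2 against 2 libraries allow, so it could not pass. The ratios of Ulk1 to Ulk2 and of Atg2a to Atg2b, also taken, did not overlap between groups either and gave the same p.

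The other ATG12 system genes had negative log2 changes and were not called. Atg7, the activating enzyme of both conjugation systems, was at 52.5 ± 4.51 CPM in WT against 41.5 ± 1.48 CPM in KO (log2 change -0.34 with SE 0.12 and adjusted p = 0.0882). Atg5 was at 36.7 ± 4.73 CPM in WT against 30.1 ± 1.53 CPM in KO (log2 change -0.29 with SE 0.15 and adjusted p = 0.251). Atg10, the enzyme that passes ATG12 to ATG5, was scarce at 5.41 ± 1.18 CPM in WT against 3.10 ± 0.809 CPM in KO (log2 change -0.80 with SE 0.38 and adjusted p = 0.200). In these 3 genes the groups did not overlap (background 55.9%), whereas Atg12 overlapped at 92.2 ± 5.51 CPM in WT against 86.8 ± 6.92 CPM in KO (log2 change -0.09 with SE 0.10).

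Of the 5 genes that process and attach ATG8 proteins, 1 rose and 4 were not called, where 6.63% of all tested genes were called higher (11.9% at a mean of at least 10 CPM). Atg4d (ENSMUSG00000002820.6, chromosome 9, 21265293 to 21277772, plus strand), encoding an ATG4 cysteine protease, had 62.4 and 56.3 CPM in the WT libraries against 72.3 and 87.7 CPM in the KO libraries (log2 change 0.43 with SE 0.12 and adjusted p = 0.0274). The Atg4d call did not hold without WT replicate 2 (adjusted p = 0.0817), nor without KO replicate 2, the higher of the KO libraries, where the log2 change was 0.28 (0.136). Its exons share 1405 bases with Kri1 on the other strand, at a mean of 31.0 CPM in WT against 38.7 CPM in KO (log2 change 0.32, adjusted p = 0.154). No source used here states a strand setting for the counting, so how reads in those shared bases were assigned is not known.

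Atg4b, for the main ATG4 protease, was at 72.8 ± 5.46 CPM in WT against 76.2 ± 1.77 CPM in KO (log2 change 0.07 with SE 0.10), and its log2 change was -0.0044 without WT replicate 2. Atg4a was at 15.0 ± 2.13 CPM in WT against 18.1 ± 0.431 CPM in KO (log2 change 0.27 with SE 0.20), and Atg4c had 15 and 43 counts in WT against 39 and 28 in KO (log2 change 0.19 with SE 0.90), with a log2 change of -0.36 without WT replicate 1 and -0.03 without KO replicate 1. Per length, Atg4b held 38.5 ± 0.296% in WT and 33.8 ± 2.09% in KO of the summed RPKM of the 4 proteases, and Atg4d held 35.8 ± 0.374% in WT and 40.3 ± 3.91% in KO. Per length, Atg4b was thus the more abundant of that pair in both WT libraries and Atg4d in both KO libraries. By CPM, Atg4b stayed the more abundant in KO replicate 1 (77.4 against 72.3 CPM). The order in that library rests on the deposited lengths, 8278 bases for Atg4b and 7264 for Atg4d. Atg3, the enzyme that attaches ATG8 proteins to lipid, was at 76.9 ± 4.44 CPM in WT against 81.1 ± 1.19 CPM in KO (log2 change 0.08 with SE 0.10).

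The ATG8 genes had nearly the same summed level in both groups while 2 of the 5 moved in opposite directions. Gabarap (ENSMUSG00000018567.14, chromosome 11, 69991143 to 69994951, plus strand) had 58.7 and 46.9 CPM in the WT libraries against 79.3 and 80.4 CPM in the KO libraries. Its log2 change 0.60 with SE 0.12 and adjusted p = 0.00529 made it the highest of the 36. Map1lc3a (ENSMUSG00000027602.9, chromosome 2, 155276297 to 155278073, plus strand), an LC3 gene, had 55.3 and 53.0 CPM in the WT libraries against 32.9 and 44.2 CPM in the KO libraries (log2 change -0.49 with SE 0.15 and adjusted p = 0.0454). The Map1lc3a call did not hold without WT replicate 1 (adjusted p = 0.0843), without KO replicate 1 (0.262) or with upper-quartile factors (0.0548). With KO replicate 1 left out its log2 change was -0.27, and with KO replicate 2 left out it was -0.72.

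Map1lc3b, the usual LC3 marker of autophagosomes, was at 455 ± 20.9 CPM in WT against 443 ± 23.3 CPM in KO (log2 change -0.04 with SE 0.07 and adjusted p = 0.828). Gabarapl2 was at 46.0 ± 2.77 CPM in WT against 46.3 ± 0.485 CPM in KO (log2 change 0.01 with SE 0.12) and Gabarapl1 at 16.3 ± 0.658 CPM in WT against 14.8 ± 1.86 CPM in KO (log2 change -0.14 with SE 0.20). In these 3 genes the groups overlapped. Per length, the 5 genes summed to 163 ± 4.62 RPKM in WT and 162 ± 2.96 RPKM in KO. Of that sum Map1lc3a made up 28.2 ± 0.0384% in WT and 20.1 ± 3.81% in KO, Gabarap 17.5 ± 2.27% in WT and 26.7 ± 0.221% in KO, and Map1lc3b 37.2 ± 2.76% in WT and 36.4 ± 2.58% in KO. The log2 ratio of Gabarap to Map1lc3a RPKM was -0.56 and -0.82 in WT against 0.62 and 0.22 in KO. Per length, Gabarap was the scarcer of the pair in both WT libraries and the more abundant in both KO libraries. By CPM, Gabarap was the more abundant in WT replicate 1 too (58.7 against 55.3 CPM). The order in that library rests on the deposited lengths, 1844 bases for Gabarap and 1181 for Map1lc3a. Since each gene's groups were already apart, in opposite directions, the ratios could not overlap. An exact permutation test gave p = 0.333, the smallest possible. Members of this family resemble each other in sequence, and how reads that map to several genes were counted is not given in the sources used here.

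**Figure D4:**
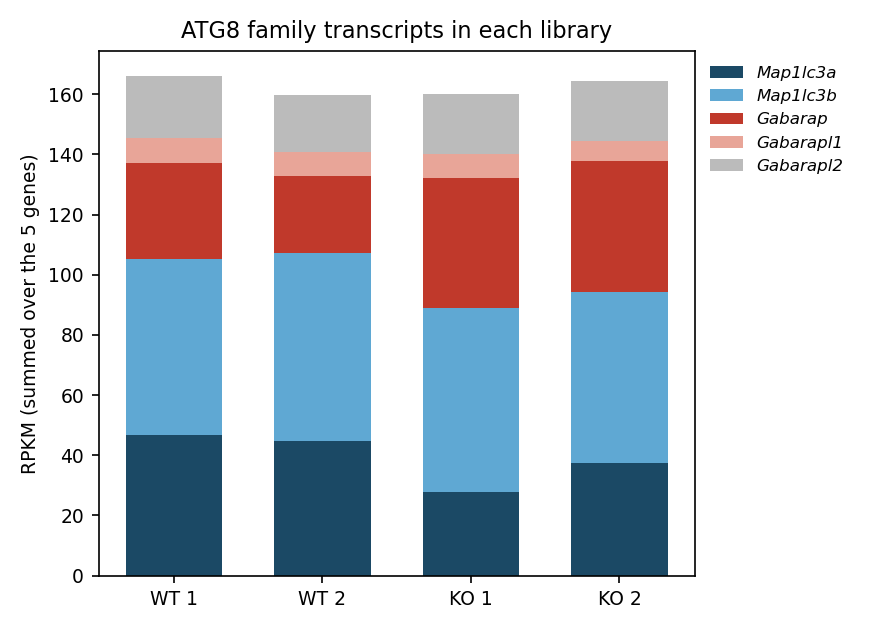
Stacked RPKM (y axis) of the 5 ATG8 genes in each library (x axis). The total runs from 159.6 to 166 RPKM, and the Gabarap segment is larger in both KO libraries (43.0 and 43.6 RPKM) than in both WT libraries (31.8 and 25.4 RPKM).

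None of the 3 cargo receptor genes was called. Sqstm1, encoding the ubiquitin-binding receptor p62, was at 71.1 ± 0.106 RPKM in WT against 64.1 ± 1.21 RPKM in KO (log2 change -0.15 with SE 0.07 and adjusted p = 0.221), with groups that did not overlap. Nbr1, a related receptor, was at 25.2 ± 0.930 RPKM in WT against 24.5 ± 0.856 RPKM in KO (log2 change -0.04 with SE 0.08), and Optn, a receptor in mitophagy, had 31 and 45 counts in WT against 34 and 13 in KO. Tfeb, for a factor that drives lysosome and autophagy genes, had 251 and 190 counts in WT against 237 and 393 in KO (log2 change 0.50 with SE 0.33 and adjusted p = 0.373), with overlapping groups.

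By level per length in WT, Sqstm1 came first at 71.1 RPKM, followed by Map1lc3b at 60.5 ± 2.77 RPKM, Atg101 at 51.0 ± 7.46 RPKM and Map1lc3a at 45.9 ± 1.36 RPKM, of which the last pair overlapped between libraries. Optn (0.279 RPKM), Atg4c (0.238 RPKM) and Wipi1 (0.123 RPKM) came last. The median was 15.4 RPKM over the 36 and 3.52 RPKM over all tested genes. The 11 genes called lower had a median WT level of 18.1 RPKM and a median deposited gene length of 5977 bases, and the 23 not called had 8.56 RPKM and 5669 bases.

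Upstream, of 35 mTORC1, AMPK and nutrient-sensing genes tested, 5 were called lower and 2 higher, with a median log2 fold change of -0.00185. For this list and those below, the background is 7.89% lower and 6.63% higher among all tested genes. At a mean of at least 10 CPM it is 13.3% lower and 11.9% higher. No list was tested as a set. Fnip1, a folliculin partner that acts on the Rag GTPases, fell, at 94.2 ± 9.78 CPM in WT against 63.6 ± 0.0944 CPM in KO (log2 change -0.57 with SE 0.10 and adjusted p = 0.00303). Rheb, the GTPase that switches mTORC1 on, fell too, at 86.9 ± 17.9 CPM in WT against 57.7 ± 1.52 CPM in KO (log2 change -0.59 with SE 0.13 and adjusted p = 0.00859), a call that did not hold without WT replicate 2 (log2 change -0.36, adjusted p = 0.0953). Mlst8, a subunit of mTOR complexes, rose, at 11.5 ± 1.36 CPM in WT against 22.1 ± 0.679 CPM in KO (log2 change 0.94 with SE 0.20 and adjusted p = 0.00688). With 1 library left out, 1 to 2 were called higher and 4 to 7 lower.

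Of 17 further core and regulatory autophagy genes, 5 were called lower and 2 higher (median -0.06). Trp53inp2, whose product binds ATG8 proteins, was at 127 ± 7.85 CPM in WT against 76.3 ± 4.11 CPM in KO (log2 change -0.73 with SE 0.09 and adjusted p = 0.000308). Sh3glb1, a UVRAG partner, was at 203 ± 7.88 CPM in WT against 151 ± 6.24 CPM in KO (log2 change -0.43 with SE 0.08 and adjusted p = 0.00341). Both fell, whereas Tecpr1, which acts at the autophagosome-lysosome step, rose, at 382 ± 5.50 CPM in WT against 488 ± 31.4 CPM in KO (log2 change 0.35 with SE 0.07 and adjusted p = 0.00704). Nrbf2, a subunit of the ATG14 form of the kinase complex, was singled out after its values were seen. It was at 38.4 ± 8.97 CPM in WT against 22.3 ± 4.27 CPM in KO (log2 change -0.79 with SE 0.19 and adjusted p = 0.0160), and was not called without WT replicate 1 (log2 change -0.52, adjusted p = 0.126). With 1 library left out, 1 to 2 were called higher and 3 to 5 lower.

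Of 19 further selective receptors tested, 3 were called lower and 2 higher (median -0.09). Tax1bp1, a ubiquitin-binding receptor (log2 change -0.44 with SE 0.08 and adjusted p = 0.00350), Sec62, a receptor for endoplasmic reticulum (log2 change -0.44 with SE 0.08 and adjusted p = 0.00278), and Bnip3l, a mitophagy receptor (log2 change -0.30 with SE 0.08 and adjusted p = 0.0234), fell. Rtn3 (log2 change 0.47 with SE 0.09 and adjusted p = 0.00306) and Retreg3 (log2 change 0.35 with SE 0.09 and adjusted p = 0.0197), both receptors for endoplasmic reticulum, rose. Bnip3l was not called without WT replicate 1 (0.187), nor Retreg3 without KO replicate 2 (0.0769). With 1 library left out, 1 to 3 were called higher and 3 to 4 lower.

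At the fusion step 4 of 15 genes were called lower and 1 higher (the median, 0.14, was positive all the same). Vps18, a core subunit of the HOPS tether, was at 90.4 ± 5.53 CPM in WT against 50.1 ± 3.03 CPM in KO (log2 change -0.85 with SE 0.10 and adjusted p = 0.000246). Snap29, a SNARE of autophagosome fusion, was at 42.3 ± 4.72 CPM in WT against 23.6 ± 3.43 CPM in KO (log2 change -0.84 with SE 0.16 and adjusted p = 0.00349). Both fell, as did Vps39, another HOPS subunit (log2 change -0.44 with SE 0.10 and adjusted p = 0.0117), and Arl8b, a lysosomal GTPase (log2 change -0.35 with SE 0.10 and adjusted p = 0.0368), and the SNARE gene Ykt6 rose (log2 change 0.26 with SE 0.08 and adjusted p = 0.0465). The Vps39 call did not hold without WT replicate 1 (0.116), nor that of Arl8b without WT replicate 2 (0.186) or KO replicate 2 (log2 change -0.22, adjusted p = 0.153). Ykt6 was not called without either WT library (0.190 and 0.135) or without KO replicate 1 (0.125), nor with a replicate block (0.0623).

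Of 44 lysosomal genes and MiT/TFE targets tested, 6 were called higher and 3 lower (median 0.03). Lipa, the lysosomal acid lipase, was at 155 ± 3.41 CPM in WT against 212 ± 0.835 CPM in KO (log2 change 0.45 with SE 0.08 and adjusted p = 0.00177). Of the proton pump genes, Atp6v1d rose, at 62.7 ± 5.23 CPM in WT against 89.8 ± 7.48 CPM in KO (log2 change 0.52 with SE 0.10 and adjusted p = 0.00573), and Atp6v1e1 fell, at 78.2 ± 4.34 CPM in WT against 52.7 ± 0.580 CPM in KO (log2 change -0.57 with SE 0.10 and adjusted p = 0.00272). The pump genes Atp6v1f and Atp6v1g1, named after their values were seen, were called higher too. Atp6v1f was not called with any 1 library left out (log2 change 0.32 to 0.41). Nor was Atp6v1g1 without WT replicate 1 (log2 change 0.33) or KO replicate 2 (0.31). With 1 library left out, 4 to 5 were called higher and 2 to 3 lower.

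Of 7 transcriptional regulators of autophagy genes, 2 were called lower and 1 higher (median -0.20). Foxo1, a forkhead factor with autophagy genes among its known targets, was at 256 ± 3.97 CPM in WT against 84.6 ± 12.9 CPM in KO (log2 change -1.59 with SE 0.10 and adjusted p = 1.21e-06), and Bhlhe40, a basic helix-loop-helix repressor, at 11.1 ± 1.05 CPM in WT against 3.02 ± 1.04 CPM in KO (log2 change -1.88 with SE 0.32 and adjusted p = 0.00228). Both fell, and Zkscan3, described in human cells as a repressor of autophagy genes, rose, at 42.2 ± 3.27 CPM in WT against 70.9 ± 0.989 CPM in KO (log2 change 0.75 with SE 0.11 and adjusted p = 0.000745).

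**Figure D5:**
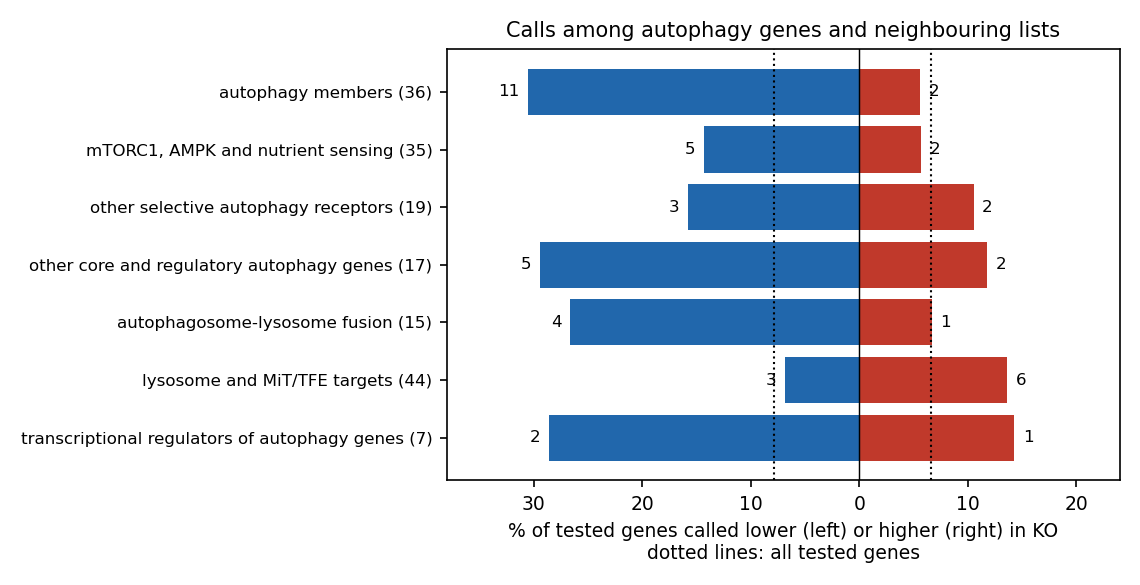
Percent of tested genes called lower (bars to the left) or higher (bars to the right) in KO for the 36 autophagy genes and the neighbouring lists, with the number called at each bar end and the number tested in parentheses. Dotted lines mark all tested genes (7.89% lower, 6.63% higher), and the bars of the autophagy genes reach 30.6% and 5.56%.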

How the data were processed

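The authors deposited gene counts of 4 libraries, and RPKM values with a gene length per gene. Tools named by the submitters' processing notes are STAR 2.6.0a, HTSeq 0.6.1, cutadapt 1.17, FastQC 0.11.5 and DESeq2 1.24.0, with build GRCm38 (mm10). No source used here gives the strand setting, the annotation release or the handling of multiply mapped reads. The handling of reads in exon bases shared between genes is not given either. The deposited RPKM values equal the deposited counts per kilobase of that length and per 1000000 library counts, within a relative tolerance of 1e-06.

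KO was compared with WT by a two-sided edgeR 4.0.16 quasi-likelihood fit (R 4.3.3, robust, TMM factors 0.993 to 1.01, filterByExpr, genotype as the one term). Benjamini-Hochberg adjustment ran over all 16588 genes, with calls under 0.05. SEs of log2 fold changes come from the F statistic, and other errors are SDs over 2 libraries. CPM uses library totals, and 1 count was worth 0.0270 to 0.0279 CPM. Replicates differed beyond counting noise (chi-square over degrees of freedom 14.2 in WT and 16.0 in KO). Coordinates and exon overlaps are from GENCODE M21, and promoter windows and synonyms from RefSeq. The fit was first tested on simulated data. A gene that was not called is not thereby shown to be unchanged.

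The 36 genes, their roles and the neighbouring lists were chosen with earlier results of these data known. The naming rule took all 36 genes, Srsf1 and, from each other list, up to 3 called genes with the smallest adjusted p, or all where at most 5 were called. Alternatives were other scaling factors and low-count filters, DESeq2 1.42.0, limma-voom and limma 3.58.1 on log2 RPKM, a replicate block, and each library left out. Gene counts do not resolve isoforms.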

Additional observations from a re-analysis of the deposited data

How the results depend on the processing

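With log2(RPKM + 0.5) or log2(RPKM + 0.1), limma called 0 genes, 0 autophagy genes higher and 0 lower, although 15 of the 36 had an unadjusted p under 0.05 in each fit, beside 16 by edgeR. With a mean of at least 1 RPKM, added after the data were seen, it called 1104 genes, 1 autophagy gene higher and 5 lower. The cause was not tested. DESeq2 and limma-voom each called 2 autophagy genes higher and 11 lower. With 1 library left out, 1980 to 2697 genes were called, 1 to 2 autophagy genes higher and 7 to 9 lower, and their median log2 fold change was -0.19 to -0.14. The fewest lower calls came without WT replicate 1, and the 1 higher call without WT replicate 2 or without KO replicate 2. Those fits assume that a lone library varies like the other group. Same-numbered libraries did not deviate together (correlation -0.0391), so the numbers were not taken as pairs, and a replicate block gave 2809 called genes, 2 autophagy genes higher and 10 lower. Outside the RPKM fits, Ulk1, Atg13, Atg101, Atg14, Wipi2, Atg16l1 and Gabarap were called in every alternative run. No called autophagy gene changed sign in any alternative run. Wipi1, Atg4c and Optn had too few counts to show a change.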
